A study of Mus musculus with 12 samples.

Results

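Fat lies close around the mouse thymus, and RNA from a dissected thymus can hold transcripts of white and brown adipocytes. White adipocytes store triglyceride in a single droplet coated by perilipin and release hormones such as adiponectin, leptin and resistin, whereas brown adipocytes burn fat through the uncoupling protein of their mitochondria. The nuclear receptor PPARG drives the genes of both kinds of fat cell, and the CIDE proteins enlarge their lipid droplets. For this account 10 such genes were examined: Adipoq, Plin1, Cidec, Pparg, Fabp4, Lep, Retn, Cfd, Ucp1 and Cidea. They were taken by name as markers of fat and not by their measured values, though earlier results of these data were known. Each was read from the brightest probe set that carries its symbol alone. Of the 10 genes, 9 had such a probe set, each exactly 1, among 19938 genes so named on the array. Cfd had none and was not analysed here.

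The samples were 12 arrays of day 7 thymic epithelium/stroma from mice of the FCG model on a C57BL/6J background. Its Y chromosome lacks Sry, the testis-determining gene, which is carried as an autosomal transgene, and testes therefore develop in XX and XY mice alike when they inherit it. There were 2 arrays of XY gonadal males (XYM; arrays 1 and 9), 4 of XX gonadal males (XXM; arrays 2, 5, 6 and 10), 3 of XY gonadal females (XYF; arrays 4, 8 and 12) and 3 of XX gonadal females (XXF; arrays 3, 7 and 11). Both kinds of male carried the Sry transgene, neither kind of female did, and thymocytes were washed out of the tissue before freezing. Whether an array held RNA of 1 pup or of several is not given in the sources used here, so the p-values speak only of variation among these arrays, part of which may be technical.

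Signals are linear intensities, with array medians between 327.54 and 345.51 and correlations between arrays of 0.9606 to 0.9801 (log2 signal). The labels of complement were borne out on every array: Eif2s3y, Kdm5d and Uty on the Y chromosome, and Xist, did not overlap between the 5 XY and the 7 XX arrays. Of the thymic epithelium markers 11 of 12 had a mean signal above 309.54, the value that 95% of 1035 probe sets for olfactory receptors stay under and a rough mark for genes largely silent outside the nose, but so were 10 of 10 measured thymocyte markers, 9 of 9 endothelium markers and 8 of 8 fibroblast markers. Cldn3 was the thymic epithelium marker below that mark.

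XXM arrays 6 and 10 stood apart through genes of heart muscle, which were chosen for display after their values were seen. Myh6, the cardiac myosin heavy chain of the atria and of the adult mouse ventricle, had a signal of 9909 on XXM array 10 and 1590.0 on XXM array 6, against 117 to 198 on the other 10 arrays. Nppa, the atrial natriuretic peptide, had a signal of 10150.4 on XXM array 10, while its 226 on XXM array 6 lay within the 197 to 265 of the others. Actc1, cardiac alpha-actin, had signals of 9407 on XXM array 10 and 3016 on XXM array 6, against 221 to 281 elsewhere. The skeletal muscle gene Acta1 reached 1623 on XXM array 6, but 374 on XXM array 10. Since these are the arrays on which several fat genes were highest, the comparisons and correlations of the fat genes were also computed without them. Adipoq had signals of 289.5 on XXM array 6 and 199.7 on XXM array 10, against 134 to 236 on the other 10 arrays. Plin1 was above its other 10 arrays on both, with 567 and 530 against 249 to 486. With the mean of the heart genes over 12 arrays, r was 0.48 for Plin1 (rho 0.75), 0.49 for Cidea (rho 0.66), 0.56 for Ucp1 (rho 0.58), 0.44 for Cidec (rho 0.65) and 0.35 for Adipoq (rho 0.33), as a description. Without XXM arrays 6 and 10, r was 0.46 for Plin1, 0.58 for Cidea, 0.54 for Ucp1, 0.49 for Cidec and 0.25 for Adipoq. For Retn r was 0.37 (rho 0.76) over 12 arrays and 0.55 without those arrays, and for Lep 0.27 (rho 0.64) and 0.60. Pparg had 0.34 (rho 0.51) and 0.37, and Fabp4 -0.14 (rho 0.22) and 0.44. The part of heart tissue in the fat gene signals was not tested.

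**Figure D1:**
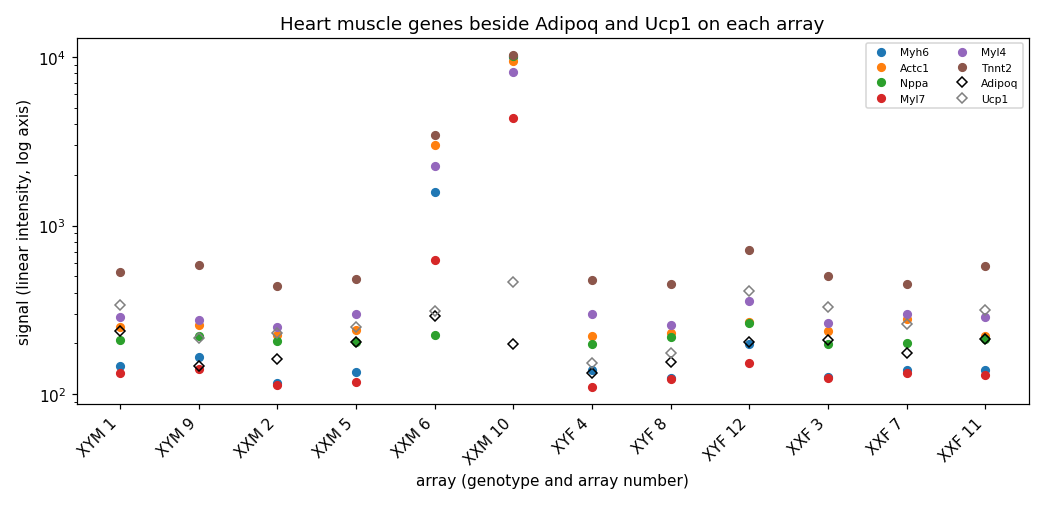
Signal (linear intensity on a log axis) of 6 heart muscle genes (filled circles) and of Adipoq and Ucp1 (open diamonds) on each of the 12 arrays, ordered as XYM, XXM, XYF and XXF. The heart genes stand high on XXM array 10 and, except for Nppa, on XXM array 6, where Myh6 had a signal of 1590.0.

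Of the 9 measured fat genes, 3 had a mean signal above the olfactory receptor mark: Fabp4 with 1859, Pparg with 513 and Plin1 with 436 (means of 12 arrays). The other 6 lay below it, so that their levels were dim, and signals of different probe sets do not rank the genes by transcript. Adipoq, which encodes adiponectin and is made almost only by adipocytes, had a mean signal of 194 ± 43.0 (SD, n = 12). It measured 236 and 147 on XYM arrays 1 and 9, and 163, 205, 289.5 and 199.7 on XXM arrays 2, 5, 6 and 10. The XYF arrays 4, 8 and 12 had 134, 155 and 205, and the XXF arrays 3, 7 and 11 had 209, 176 and 213. The ranges of the 4 genotypes overlapped, and the lowest array was an XYF one and the highest an XXM one.

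Plin1, the perilipin on the droplet of adipocytes, ranged from 249 on XYF array 4 to 567 on XXM array 6 around a median of 455. Cidec, which fuses lipid droplets, ranged between 133 and 220.1 on the same 2 arrays. Pparg varied least of the 9 genes, with a lowest signal of 453 on XXM array 2 and a highest of 626 on XXM array 6. The SD of the log2 signal over 12 arrays was 0.33 for Plin1, 0.31 for Adipoq, 0.21 for Cidec and 0.12 for Pparg, which placed Plin1 above 98.6% of named genes and Pparg above 39.9%.

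The brown fat genes varied more than any other of the 9. Ucp1, the uncoupling protein that defines brown fat, had signals of 338 and 216 on XYM arrays 1 and 9, and of 231, 249.95, 309.6 and 461 on XXM arrays 2, 5, 6 and 10. On the XYF arrays 4, 8 and 12 it measured 154, 177 and 409, and on the XXF arrays 3, 7 and 11 it measured 329.7, 260.1 and 316. The XYF arrays alone therefore spanned 2.65-fold. Cidea, a CIDE protein of brown adipocytes, lay between 63.4 on XYF array 4 and 148 on XXM array 10, with a mean of 106.5, close to the median of the olfactory receptor probe sets (107). The SD of log2 signal was 0.47 for Ucp1 and 0.41 for Cidea, above those of 99.5% and 99.3% of named genes.

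The remaining genes behaved otherwise. Fabp4, the fatty acid binding protein of adipocytes that capillary endothelium and macrophages also make, was highest on XYF array 4 with 2335, the array on which 7 of the other 8 genes were lowest. Lep, which encodes the satiety hormone leptin, stayed within 130.4 to 177 on all 12 arrays. Retn, which encodes the adipokine resistin, stayed within 219 and 315.

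**Figure D2:**
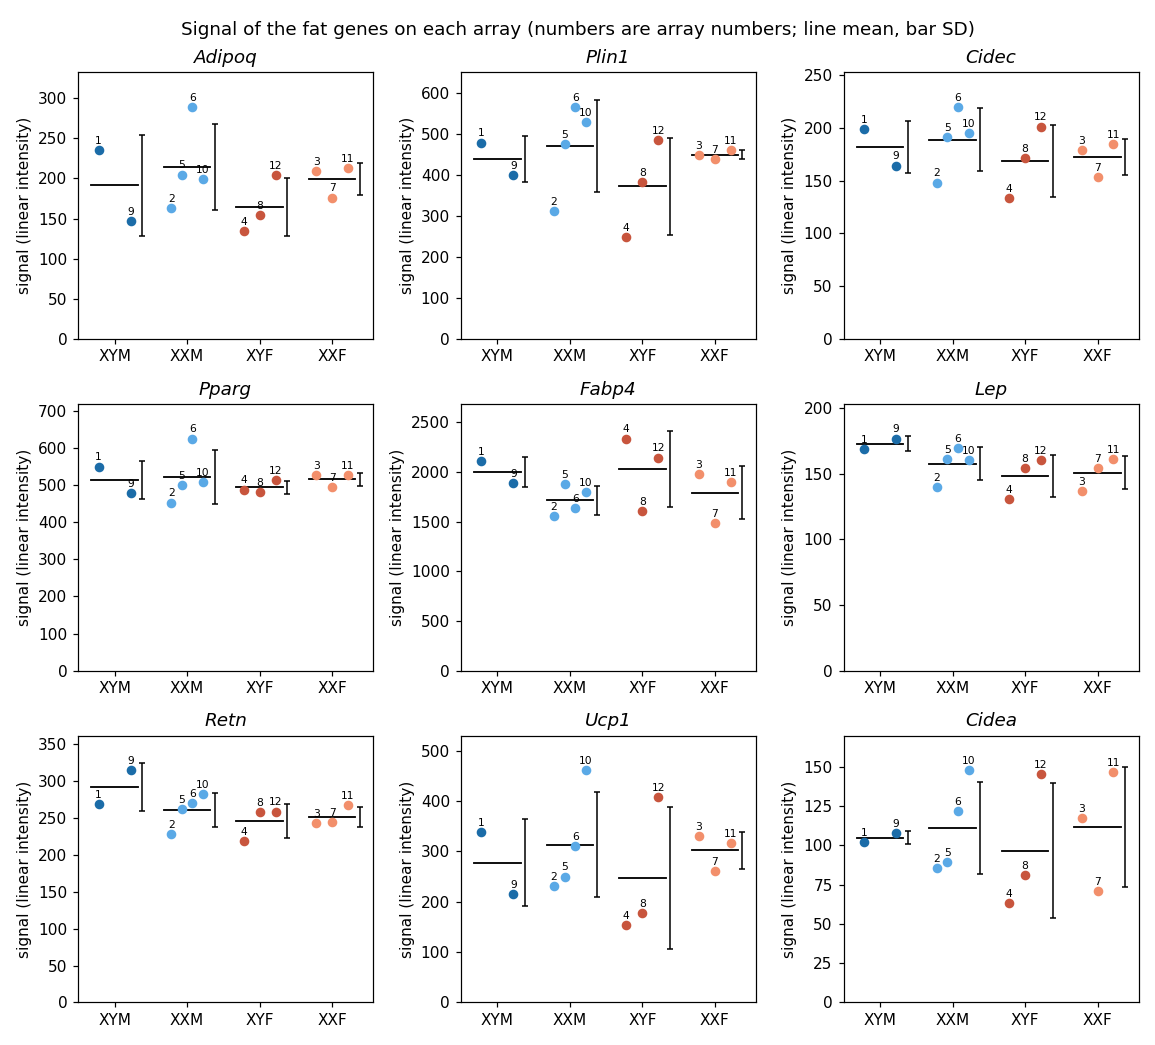
Signal (linear intensity) of the 9 measured fat genes on each array, by genotype in the order XYM, XXM, XYF and XXF, with array numbers at the points. Horizontal lines are group means and vertical bars the SD (n = 2, 4, 3 and 3). XYF array 4 is lowest for 7 genes and highest for Fabp4, and XXM arrays 6 and 10 hold the highest signals of Adipoq, Plin1, Cidec, Pparg, Ucp1 and Cidea.

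Co-variation between arrays was examined first against Adipoq. Plin1, Cidec, Pparg, Ucp1 and Cidea followed it over the 12 arrays, whereas r with Adipoq was 0.45 for Lep, 0.27 for Retn and -0.05 for Fabp4. With Adipoq, Plin1 had r = 0.84 (permutation p = 0.00032) and rho = 0.78 (permutation p = 0.00433), and r = 0.73 without the 2 arrays farthest from the median of Adipoq. Cidec had r = 0.88 (permutation p = 0.00016) and rho = 0.79 (permutation p = 0.0035), and r = 0.76 without those arrays. For Pparg r was 0.88 (permutation p = 0.00017) and rho 0.92 (permutation p = 0.0001), and r was 0.89 without them.

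Ucp1 and Cidea were correlated with Adipoq as well. For Ucp1 and Adipoq r was 0.72 (permutation p = 0.00831) and rho 0.67 (permutation p = 0.0207), with r = 0.75 without the 2 farthest arrays and 0.88 without XXM arrays 6 and 10. Between Cidea and Adipoq r was 0.61 (permutation p = 0.0369) and rho 0.57 (permutation p = 0.0594), and without the 2 farthest arrays r was 0.48. Between Ucp1 and Cidea r was 0.83 (permutation p = 0.00093), rho was 0.78 (permutation p = 0.00425) and r was 0.70 without the 2 arrays farthest in Ucp1. These are 6 of 36 pairs computed, their p-values are not adjusted, and differences between the correlations were not tested.

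Fitted over all probe sets, the co-variation with Adipoq passed at no gene. In limma's regression of every other probe set on the log2 signal of Adipoq, 0 of 8 fat genes passed an adjusted p of 0.05, beside 0% of the 35555 probe sets tested. At an unadjusted p under 0.05, 5 of the 8 had a positive slope, beside 1.35% of all probe sets (480 of 35555). The slope was 0.89 ± 0.17 for Plin1 (SE; adjusted p = 0.499), 0.59 ± 0.11 for Cidec (adjusted p = 0.426), 0.33 ± 0.08 for Pparg, 1.08 ± 0.29 for Ucp1 and 0.80 ± 0.29 for Cidea (adjusted p = 1.00 for each of these 3), in log2 units per log2 unit of Adipoq. Slopes were 0.19 ± 0.12 for Lep, 0.12 ± 0.13 for Retn and -0.03 ± 0.19 for Fabp4. Among the 8 genes 5 had r above 0.5 with Adipoq, where 2.85% of the 19937 other named genes had.

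Adipoq, Plin1, Cidec, Pparg, Ucp1 and Cidea were then described as a set, chosen after these correlations were seen. Their 15 pairs had r between 0.46 and 0.92 with a median of 0.75, and 13 of the 15 were above 0.5. Without XXM arrays 6 and 10 the 15 pairs had r between 0.51 and 0.89 with a median of 0.77. Without XYF array 4 they lay between 0.43 and 0.93. After the means of genotype and of arrays 1 to 4, 5 to 8 and 9 to 12 were removed, r lay between 0.61 and 0.97. The mean of their centred log2 signals was 0.34 on XXM array 6, 0.30 on XXM array 10 and 0.26 on XYF array 12, against -0.55 on XYF array 4, -0.27 on XXM array 2 and -0.26 on XYF array 8. XXM and XYF thus each held both high and low arrays.

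**Figure D3:**
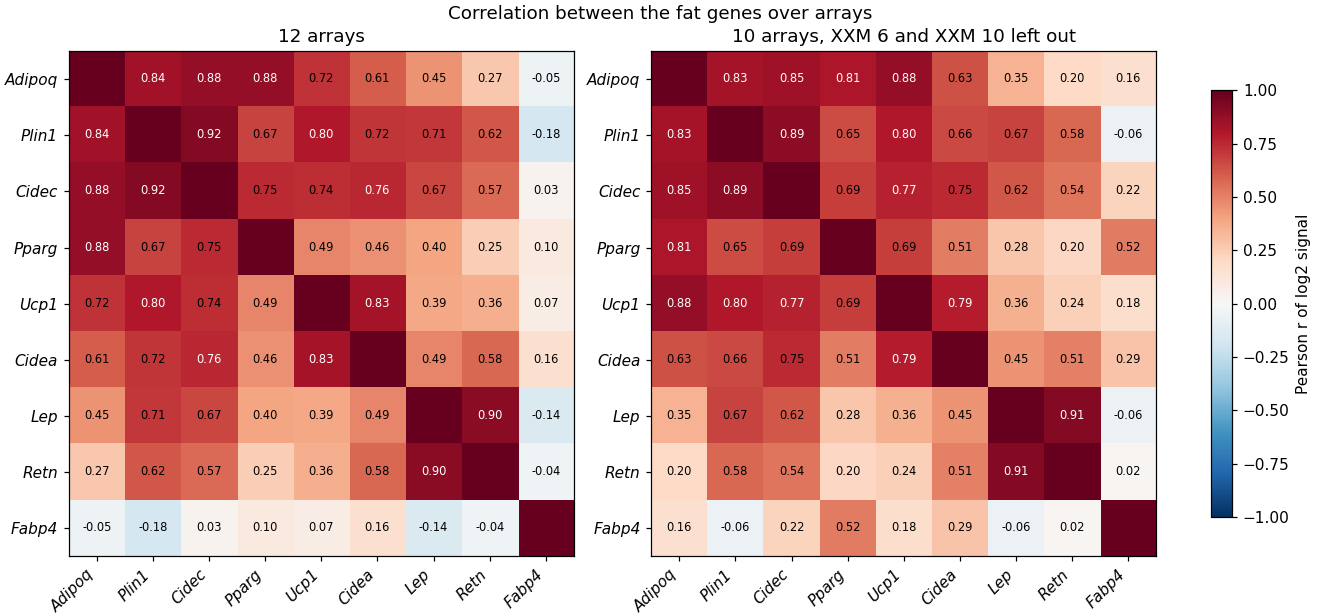
Pearson correlation of log2 signal between the 9 fat genes over all 12 arrays (left) and over 10 arrays without XXM arrays 6 and 10 (right), on a colour scale from -1 to 1. The block of Adipoq, Plin1, Cidec, Pparg, Ucp1 and Cidea has r of 0.46 to 0.92 on the left and 0.51 to 0.89 on the right, Lep and Retn pair with each other, and Fabp4 is near 0 with most genes on the left.

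Since the signals of Adipoq, Plin1 and Pparg were correlated over the arrays, the 250 bases before their start sites are shown, with Lep for contrast because its promoter holds the palindrome of the motif searched. The motif was TTGCNNAA, a core that C/EBP factors of adipocytes bind, read on both strands. Matches stand in capitals, and of the 3 starts listed for Pparg the one with the most matches is shown. The sequences are RefSeq's, from build GRCm38.p6, and are written 5′ to 3′ on the strand of the gene.
Adipoq, chr16:23146286-23146535, plus strand: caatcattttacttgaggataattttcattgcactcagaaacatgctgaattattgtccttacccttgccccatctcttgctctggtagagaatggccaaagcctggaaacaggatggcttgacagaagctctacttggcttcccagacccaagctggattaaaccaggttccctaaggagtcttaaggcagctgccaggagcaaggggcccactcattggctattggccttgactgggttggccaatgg
Plin1, chr7:79732777-79733026, minus strand: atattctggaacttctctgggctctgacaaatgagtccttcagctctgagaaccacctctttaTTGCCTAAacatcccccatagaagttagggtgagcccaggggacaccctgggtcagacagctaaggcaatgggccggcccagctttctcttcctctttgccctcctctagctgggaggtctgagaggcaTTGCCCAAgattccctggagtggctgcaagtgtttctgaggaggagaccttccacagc
Pparg, chr6:115421816-115422065, plus strand: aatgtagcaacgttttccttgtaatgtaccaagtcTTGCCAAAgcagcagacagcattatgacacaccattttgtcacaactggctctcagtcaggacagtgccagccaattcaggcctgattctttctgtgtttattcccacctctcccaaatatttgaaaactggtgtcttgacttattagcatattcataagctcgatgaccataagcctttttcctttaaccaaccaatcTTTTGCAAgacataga
Lep, chr6:29059971-29060220, plus strand: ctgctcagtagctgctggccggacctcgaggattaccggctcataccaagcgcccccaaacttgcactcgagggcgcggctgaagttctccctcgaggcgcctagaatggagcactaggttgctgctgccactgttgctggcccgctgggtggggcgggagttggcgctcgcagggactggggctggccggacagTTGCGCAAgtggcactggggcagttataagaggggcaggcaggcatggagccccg
Plin1 held 2 matches, whose first bases lie 187 and 58 bases before its start, and the third of the listed Pparg starts held 2, at 215 and 16 bases, while the other 2 starts of Pparg held none. Lep held 1, at 55 bases, which was also the only match among these genes to the palindrome TTGCGCAA. Of the 2 listed starts of Cidec, 1 held a match at 198 bases, and the windows of Adipoq, Ucp1 and Retn held no such letters. TTGCNNAA was found in 9.56% of 32851 promoters of the same length and TTGCGCAA in 0.164%. Cidea was not searched, Fabp4 had no listed promoter, and the promoters counted leave out a whole chromosome. A match describes letters only.

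Fabp4 did not follow the other fat genes. Its 8 pairs had r between -0.18 and 0.16. Its 2108 and 1889 on XYM arrays 1 and 9 stood beside 1555, 1874, 1638 and 1794 on XXM arrays 2, 5, 6 and 10, 2335, 1604 and 2143 on XYF arrays 4, 8 and 12, and 1979.6, 1484 and 1900.6 on XXF arrays 3, 7 and 11. XYF array 4 carried much of the contrast with the other genes: without it the 8 pairs had r between 0.23 and 0.62.

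Fabp4 varied instead with genes of blood vessels, though not with these alone. Its correlation with the mean centred log2 signal of 9 endothelium markers was r = 0.84 over 12 arrays, and 0.82 after the means of genotype and array sets were removed, as a description. Among single markers r was 0.93 for Egfl7, 0.87 for Esam, 0.86 for Cldn5 and 0.73 for Gpihbp1, which anchors lipoprotein lipase on capillaries, and 0.31 for Tek. The same marker list had r = -0.35 with Adipoq, -0.51 with Plin1 and -0.24 with Ucp1, and rho of -0.12, -0.15 and 0.13. After the means of genotype and array sets were removed, r was 0.05, 0.04 and -0.01. Outside the endothelium list, Aire of the thymic epithelium had r = 0.87 with Fabp4. Of the 19937 other named genes 8.53% had r above 0.5 with Fabp4. After the same means were removed, Fabp4 had r = 0.74 with lymph node stroma markers, 0.70 with skeletal muscle markers and -0.42 with thymocyte markers. Over 12 arrays these were -0.22, -0.00 and -0.59. The summed signal of the endothelium list ran from 9350 to 11633 in male arrays and from 9872 to 13492 in female arrays. The part of endothelium in the Fabp4 signal was not tested.

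**Figure D4:**
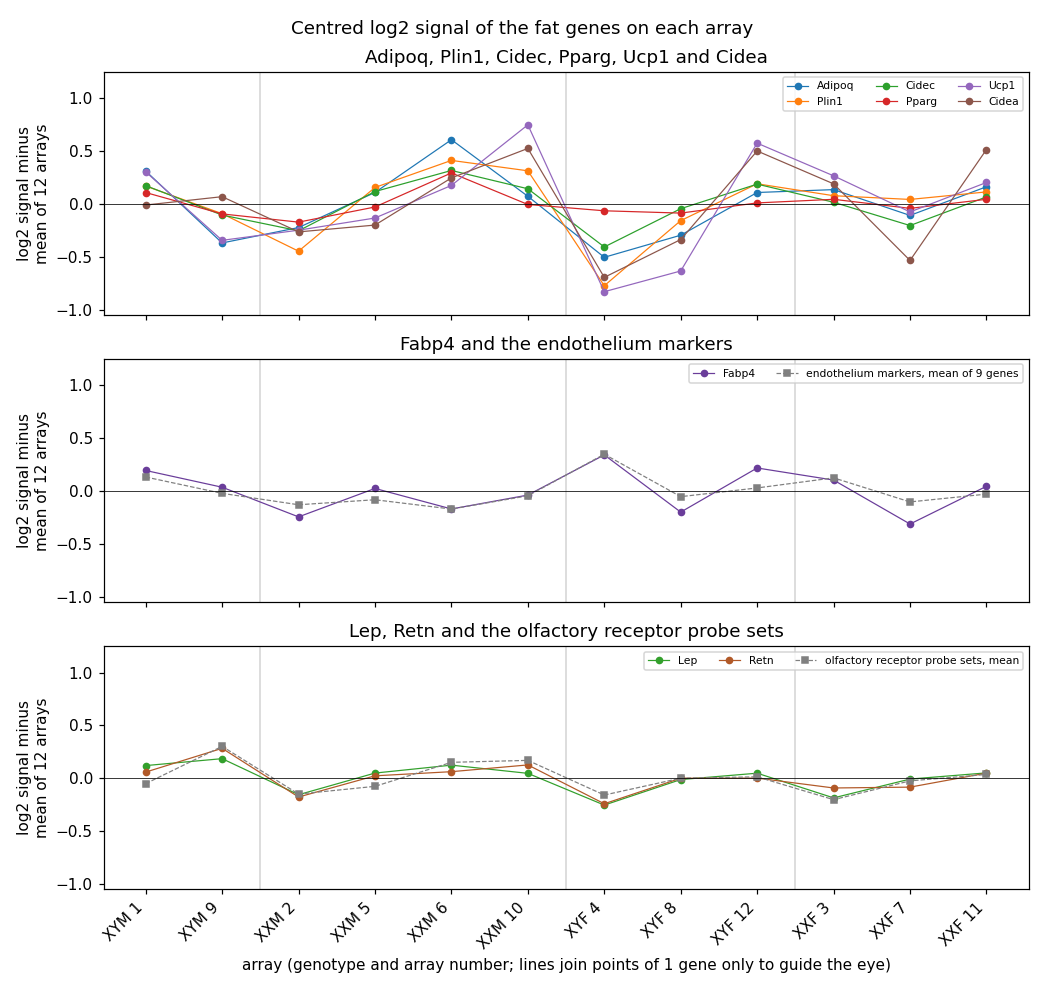
Log2 signal minus the mean of 12 arrays, on each array in the order XYM, XXM, XYF and XXF, for the 6 fat genes that vary together (top), Fabp4 with the mean of 9 endothelium markers (middle), and Lep and Retn with the mean of the olfactory receptor probe sets (bottom). XYF array 4 is low in the top panel and high in the middle one, and XYM array 9 is the high point of the bottom one.

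Lep and Retn followed each other and the general level of the olfactory receptor probe sets. Their correlation was r = 0.90 (permutation p = 5.0e-05) and rho = 0.88 (permutation p = 0.00028), with r = 0.88 without the 2 arrays farthest in Lep. With the mean log2 signal of the olfactory receptor probe sets, Lep had r = 0.81 and Retn r = 0.88, against -0.18 to 0.46 for the other 7 genes. Of the named genes 31.4% had r above 0.5 with Lep and 34.1% with Retn. After a renewed quantile normalization r between Lep and Retn was 0.66, and after the means of genotype and array sets were removed it was 0.21.

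With Lep as the covariate, chosen after these correlations were seen, limma called 2 of 8 fat genes, beside 10.2% of the 35555 probe sets. They were Retn, with a slope of 0.93 ± 0.18 (SE; adjusted p = 0.0310), and Plin1, with 1.75 ± 0.50 (adjusted p = 0.0458). After a renewed quantile normalization 0 of the 8 and 1 of all probe sets passed, and with genotype and array sets in the fit none did, nor did any without XXM arrays 6 and 10. Adipoq and Lep had r = 0.45 over the 12 arrays, and 0.94 once the means of genotype and array sets were removed, which left few degrees of freedom.

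Gonadal sex was a main question of the study, and no fat gene passed the test for it. In the limma fit of 4 genotypes, 0 of 9 passed an adjusted p of 0.05, beside 0.00281% of the 35556 probe sets (1 probe set). None of the 9 had an unadjusted p under 0.05. The same model without moderation of the variances, as in the methods, also called 0 of 9. The male minus female difference was above 0 for 8 of the 9, between 0.03 and 0.16 on the log2 scale, and -0.03 for Fabp4, where 51.3% of all probe sets were above 0. That share depended on signal: it was 36% among the 18915 probe sets above the olfactory receptor mark, and so higher among dim ones. Only 3 of the 9 fat genes lay above the mark, so 51.3% is a rough comparison for them. Without XXM arrays 6 and 10 the difference was above 0 for 5 of the 9, beside 49.6% of all probe sets. No gene separated the 6 male from the 6 female arrays.

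The lowest p-values belonged to the 2 adipokines that followed the olfactory receptor probe sets. Retn had a lowest, median and highest signal of 229, 269.6 and 315 in males, against 219, 251 and 267 in females. Its difference was 0.15 ± 0.08 (SE; p = 0.0793, adjusted p = 0.985), and the exact permutation test over 924 groupings, two-sided, gave p = 0.134. Lep had 139.6, 165 and 177 in males, against 130.4, 154 and 161 in females, with a difference of 0.14 ± 0.08 (p = 0.0898, adjusted p = 0.985; exact permutation p = 0.141). Males and females overlapped in both, though 4 male arrays of Retn and 3 of Lep lay above every female one. Array sets, grouped by array number and not named as batches in the labels, were also taken as a block in limma. The differences in that limma fit were 0.15 for both, with unadjusted p = 0.0064 for Retn and 0.0071 for Lep and an adjusted p of 0.386. In that fit 4105 of all 35556 probe sets had an unadjusted p under 0.05 for sex, against 1076 without the block. Within arrays 1 to 4, 5 to 8 and 9 to 12 the Retn difference was 0.11, 0.08 and 0.18, and the Lep difference 0.20, 0.10 and 0.07.

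For the genes of the droplet and of brown fat the intervals were wide. Adipoq had 147, 202 and 289.5 in males, against 134, 190.5 and 213 in females, and a difference of 0.14 with a 95% confidence interval of -0.23 to 0.51. Ucp1 had 216, 279.8 and 461 in males, against 154, 288 and 409 in females, and a difference of 0.14 with an interval of -0.42 to 0.70. Leaving out XXM arrays 6 and 10 brought the difference of Adipoq to 0.04 and turned those of Ucp1, Cidea and Pparg to -0.02, -0.04 and -0.03. The difference of Adipoq within arrays 1 to 4, 5 to 8 and 9 to 12 was 0.23, 0.56 and -0.28.

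Sex chromosome complement likewise called none of the 9 fat genes, beside 0.0366% of the 35556 probe sets (13 probe sets). At an unadjusted p under 0.05 none passed either. Fabp4 had the lowest p, with a lowest, median and highest signal of 1604, 2108 and 2335 on the 5 XY arrays, against 1484, 1794 and 1979.6 on the 7 XX arrays. Its XY minus XX difference was 0.20 ± 0.11 (SE; p = 0.0971, adjusted p = 1.00; exact permutation p = 0.0884 over 792 groupings), and 3 XY arrays lay above every XX one. All 9 endothelium markers, with which Fabp4 varied, also had a difference above 0, with a median of 0.14 and none called. So did 11 of 12 thymic epithelium markers, with a median of 0.06, beside 52.6% of all probe sets. Of thymocyte markers 0 of 10 and of fibroblast markers 1 of 8 were above 0. The part of endothelium in the Fabp4 difference was not tested.

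The genes of the co-varying set ran the other way, each with an interval that spans 0. Adipoq had 134, 155 and 236 on XY arrays, against 163, 205 and 289.5 on XX arrays, and a difference of -0.23 ± 0.17 (adjusted p = 1.00). Ucp1 differed by -0.29 with an interval of -0.85 to 0.27, Plin1 by -0.20 and Cidea by -0.14. The smallest differences were those of Cidec, -0.05, and Pparg, -0.04. Without XXM arrays 6 and 10 the differences were -0.13 for Adipoq, -0.13 for Ucp1, -0.07 for Plin1 and 0.01 for Cidea, and those of Cidec and Pparg were also above 0. For the interaction of sex and complement 0 of 9 genes passed, beside 0% of all probe sets, with 0 of 9 also at an unadjusted p under 0.05. Its estimates lay between 0.00 for Cidec and 0.27 for Ucp1, and the lowest unadjusted p was 0.228, for Retn.

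**Figure D5:**
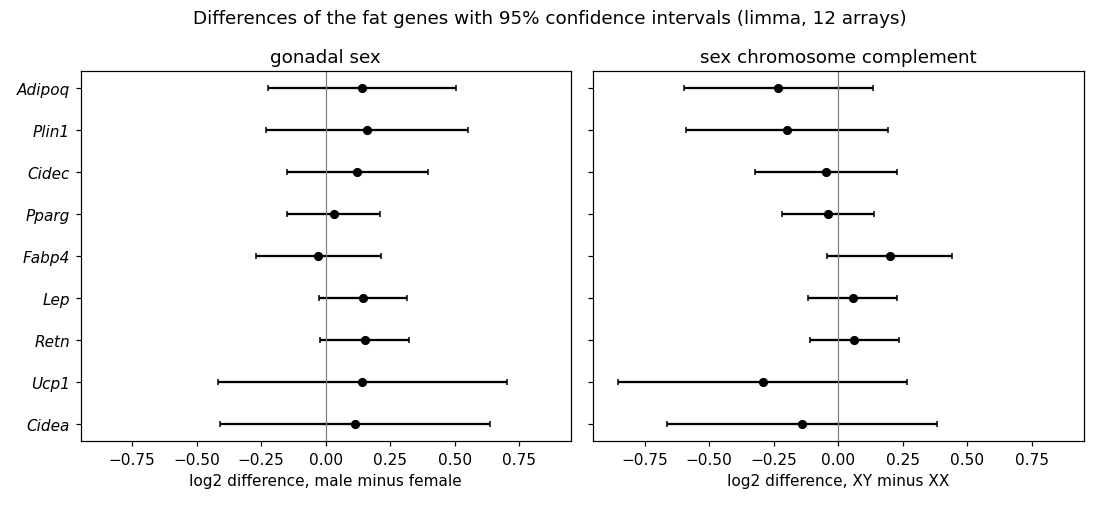
Log2 difference of each of the 9 fat genes between males and females (left, male minus female) and between XY and XX arrays (right, XY minus XX), from the limma fit of 12 arrays, with 95% confidence intervals as bars. Every interval spans 0, and those of Ucp1 and Cidea are the widest.

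Other genes of fat were taken from 5 lists. In none of them was any gene called for sex or complement. Of these 5 lists that of fat storage and lipolysis came nearest to Adipoq: 10 of its 23 measured genes had r above 0.5 with Adipoq, 1 had r below -0.5, and its median r was 0.46, where the median of all 19937 other named genes was 0.05. Fibroblast markers, which are not genes of fat, had a similar median r of 0.44, with 3 of 8 above 0.5. After a renewed quantile normalization the medians were 0.42 for fat storage and lipolysis and 0.50 for fibroblast markers. Gpd1, which makes the glycerol backbone of triglyceride, had signals of 288 on XYF array 4 and 545 on XXM array 6 and r = 0.86. Pck1, which supplies that backbone from pyruvate in fat, had 176 and 386 on the same arrays and r = 0.93, at a signal below the olfactory receptor mark. Plin4, another droplet coat protein, had r = 0.79, and Pnpla2, the triglyceride lipase with a mean signal of 991, r = 0.64.

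Other genes of the list were not correlated in this way. Cd36, a fatty acid transporter that endothelium and macrophages share, had the highest signal of the list with a mean of 1736 and r = 0.00 with Adipoq. Gpihbp1 had r = -0.51, and Bscl2, which encodes seipin at the birth of lipid droplets, r = 0.13. For sex, Mgll, the monoglyceride lipase, had the lowest p of the list with a difference of -0.12, followed by Mrap at 0.14 and Gpihbp1 at -0.08 (limma adjusted p = 0.985 each). Across the list 12 of 23 differences were above 0 with a median of 0.03.

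Fatty acid synthesis showed a different picture. Of its 15 genes 2 had r above 0.5 with Adipoq, Mlxipl with 0.80 and Scd1 with 0.70, and the median r was 0.01. Fasn, the fatty acid synthase, had r = -0.34, with its lowest signal of 1705 on XXM array 6, where Adipoq was highest. Scd2 and Elovl5, a desaturase and an elongase, had mean signals of 4158 and 2132 and r of 0.09 and -0.10. The lowest p-values for sex were those of Insig1, Elovl6 and Slc25a1, with differences of -0.10, -0.12 and -0.07 (adjusted p = 0.985 each).

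Among 18 adipogenic regulators 4 had r above 0.5 with Adipoq, and the median was 0.22. They were Ebf2, a factor of brown fat precursors, with 0.87, Cebpa, the partner of PPARG in fat cell differentiation, with 0.75, Adig with 0.65 and Pi16 with 0.59. Cd34, Dpp4 and Mest, the 3 genes with the highest mean signals of the list, had r of -0.25, 0.09 and -0.22. Mest, Rxra and Cebpb had sex differences of -0.19, -0.09 and 0.08, none called. In the list of adipokines and receptors 4 of 14 genes had r above 0.5, Angptl4 with 0.78, Irs1 with 0.58, Agt with 0.56 and Adipor2 with 0.51. The receptors Insr and Adipor1 had r of 0.02 and 0.00, and Rbp4, Fst and Apln had sex differences of 0.14, 0.08 and -0.06.

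In the list of brown fat and thermogenesis 20 of 21 genes had a male minus female difference above 0, with a median of 0.07 and no gene called, where 51.3% of all probe sets were above 0. The exception was Letmd1, with -0.06. Only 8 of the 21 lay above the olfactory receptor mark. Among probe sets above the mark 36% had a difference above 0, so dim ones had a higher share than 51.3%. Without XXM arrays 6 and 10, 9 of the 21 were above 0, with a median of -0.0094, beside 49.6% of all probe sets. With all arrays 9 of 9 skeletal muscle markers and 8 of 8 fibroblast markers were above 0 too, with medians of 0.08 and 0.06, and without those 2 arrays 6 of 9 and 4 of 8 were. The summed signal of the list ran from 6528 to 10801 in male arrays and from 6521 to 7503 in female arrays, and XXM array 10 held the highest signal of Fabp3, Cox8b, Cox7a1, Ppargc1a, Dio2 and Ucp3. Fabp3, a fatty acid binding protein of heart, skeletal muscle and brown fat, had a signal of 2533 on that array and 519 on XXM array 6, against 286 to 404 on the other 10, and its plain difference of group means was 0.57 with all arrays and -0.04 without XXM arrays 6 and 10. Cox8b, a subunit of cytochrome oxidase in heart, skeletal muscle and brown fat, had 714 on XXM array 10 and 226 on XYF array 4, and the same difference was 0.34 with all arrays and -0.01 without those 2. Its correlation with Ucp1 was 0.78 over 12 arrays and 0.82 without them. Fabp3 had r = 0.48 with Ucp1 over 12 arrays and -0.27 without them, so that Cox8b followed Ucp1 on the remaining arrays and Fabp3 did not. Ucp3 and Tbx1 had sex differences of 0.18 and 0.11 (limma adjusted p = 0.985 each). Of the transcriptional regulators in the list, Prdm16 and Ppargc1a were below the olfactory receptor mark, with mean signals of 252 and 176 and r of 0.39 and 0.68 with Ucp1, and Ppargc1a had 527 on XXM array 10. Ppargc1b and Ppara lay above the mark, with 508 and 404 and r of 0.67 and 0.77.

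The genes nearest to Adipoq, among 11272 others above the olfactory receptor mark, were Prkar2b (r = 0.91), Eci1 (0.91), Car3 (0.88), Pparg (0.88) and Gpd1 (0.86). Car3, a carbonic anhydrase abundant in fat and muscle, had the widest range, with 198 on XYF array 4 and 1469 on XXM array 6, and kept r = 0.90 without XXM arrays 6 and 10. Prkar2b encodes a regulatory subunit of protein kinase A, and Eci1 an isomerase of mitochondrial fatty acid oxidation. The genes nearest to Ucp1 were Ankrd13b (r = 0.88), 1700071K01Rik (0.88), Ecm1 (0.86), Bcorl1 (0.84) and Qsox1 (0.83), all with narrow ranges, such as 451 to 566 for Ankrd13b. These are the extremes of a ranking over 12 arrays and carry no test.

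Markers of other tissues were set beside the same genes. Of the skeletal muscle list 4 of 9 genes were above the olfactory receptor mark, and its summed signal ran from 1978 to 4014 in male arrays and from 2185 to 2665 in female arrays. Its correlation was 0.55 with Adipoq (rho 0.38), 0.64 with Plin1 (rho 0.70) and 0.37 with Ucp1 (rho 0.35). XXM array 6 was the highest array of this list, with a mean centred log2 signal of 0.41, and also of Adipoq. Fibroblast markers had r = 0.58 with Adipoq, with sums of 9799.8 to 14973 in male and 9887 to 15297 in female arrays. Thymic epithelium markers had r of -0.40 with Adipoq (rho -0.14) and -0.50 with Ucp1 (rho -0.25). After the means of genotype and array sets were removed, r was -0.25 and -0.12. The sums of these markers were 29585 to 36056 in male and 32118 to 37380.1 in female arrays. Lymph node stroma markers, 1 of 3 above the mark, had r of 0.54 with Adipoq and 0.55 with Plin1, with sums of 768 to 1027 in male and 707 to 1155 in female arrays. Erythroid markers, 0 of 4 above the mark, had r of 0.49 with Adipoq, 0.59 with Plin1 and 0.71 with Cidec, with sums of 757 to 1176 in male and 822 to 1164 in female arrays. Both lists had positive r with the fat genes named here. Macrophage markers, 8 of 9 above the mark, had r of 0.30 with Adipoq and 0.02 with Plin1, and of 0.77 and 0.97 after the means of genotype and array sets were removed. Their sums were 4419 to 5819 in male and 4334 to 5615 in female arrays. Nerve markers, 1 of 2 above the mark, had r of 0.83 with Lep and 0.87 with Retn. After the means of genotype and array sets were removed, these were -0.17 and 0.42. The sums of the nerve markers were 559 to 794 in male and 569 to 684 in female arrays. The part of these tissues in the fat gene signals was not tested, and in bulk RNA fewer fat cells and less RNA per cell cannot be told apart.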

How the data were processed

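RNA of day 7 thymic epithelium/stroma was hybridised by the authors to Affymetrix mouse Gene ST arrays, and they deposited 1 column of linear signal intensity per array. Affymetrix Expression Console 1.1 with PLIER stands in the submitters' processing notes, whereas the methods name RMA with quantile normalization; the deposited intensity values are linear with unequal array medians, so which steps were applied is not settled, and folds of dim probe sets depend on it. Probe sets were named through the platform annotation: of 35556, 21789 had 1 symbol, 1621 several and 12146 none. Values were taken to log2 without an offset and fitted with limma 3.58.1 (R 4.3.3; lmFit, eBayes) as 4 genotype means, with Benjamini-Hochberg adjustment over all probe sets and a threshold of 0.05. Correlations used log2 signal and 100000 permutations, and array sets are arrays 1 to 4, 5 to 8 and 9 to 12. This grouping was made from the array numbers for this account, and the labels name no batches. The scripts were tested on simulated data. Precision is limited by how few arrays there are. The fat genes, the lists and the alternatives were chosen with earlier results of these data known. Named were the fat genes, up to 3 genes of each list by signal and up to 3 by p for sex, and the 5 genes nearest to Adipoq and to Ucp1; heart muscle genes and other list genes with r above 0.5 or of known role in fat were named after their values were seen.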

Additional observations from a re-analysis of the deposited data

Results flagged for a closer look

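Among 45 groups of arrays tested for 1 array far from the rest, 3 were found, where chance gives about 1 in 20. The Adipoq signal of 289.5 on XXM array 6 stood above the other 6 XX arrays, which lay between 163 and 213. On the same array Pparg stood apart from the other XX arrays with 626. For Ucp1 the array that stood apart among the XX arrays was XXM 10, with 461. These are the 2 arrays with high heart muscle genes; the part of that tissue in these signals was not tested.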

How the results depend on the processing

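No paired analysis was possible because the array numbers of the labels run from 1 to 12 and no 2 arrays share one. The count of 0 called fat genes for sex, complement, their interaction and co-variation with Adipoq held under every alternative run: a renewed quantile normalization, an offset of 16, 2 filters on dim probe sets, array sets as a block, other moderation or weights, an additive model, leaving out each array, and leaving out XXM arrays 6 and 10, the last chosen after seeing the data (not every one was run for each test). For co-variation with Lep, itself chosen after seeing the data, the 2 called genes became 0 under a renewed quantile normalization, 0 with genotype and array sets in the fit and 0 without XXM arrays 6 and 10, and 0 to 2 when 1 array was left out: 0 without XXF array 3, XXM arrays 2 or 6, XYF array 4 or XYM array 9, and 1 without 6 others. For sex, Fabp4 was 0.023 with array weights, and without XXM arrays 6 and 10 Pparg was -0.031, Ucp1 -0.023 and Cidea -0.042. For complement, Cidec was 0.027, Pparg 0.022 and Cidea 0.014 without those arrays. The slope of Fabp4 on Adipoq was 0.21 with genotype and array sets, 0.32 when XYF array 4 was also left out and 0.13 without XXM arrays 6 and 10, and its slope on Lep 0.70 with genotype and array sets. Leaving out 1 array at a time, sex differences ran from -0.030 to 0.31 for Adipoq, -0.035 to 0.28 for Cidea, -0.11 to 0.027 for Fabp4, -0.020 to 0.081 for Pparg and -0.022 to 0.36 for Ucp1, complement differences from -0.12 to 0.032 for Cidec and -0.089 to 0.012 for Pparg, slopes on Adipoq from -0.10 to 0.19 for Fabp4 and -0.0051 to 0.26 for Retn, and the slope of Fabp4 on Lep from -0.49 to 0.42. The cause was not tested. Of the 21 genes of brown fat and thermogenesis, 20 differences for sex were above 0 with all arrays and 9 without XXM arrays 6 and 10. Of the 9 genes 6 were below the olfactory receptor mark, where signal over background is small.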
